A study of Homo sapiens with 12 samples.

Results

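The 6 input arrays of the series carry RNA of HEK293T cells that did not pass through the streptavidin pull-down, and they are 6 of the 12 Illumina bead arrays measured. They were chosen by their titles: 3 inputs of cells transfected with miR-3118-3p and 3 inputs of cells transfected with miR-4307-3p. HEK293T cells are an established line from human embryonic kidney that makes the large T antigen of the virus SV40. All 6 inputs come from cells given a biotin-tagged synthetic duplex (200 pmol, with HiPerFect reagent) and harvested after 24 hours. An input shows the RNA from which a pull-down draws, and here the inputs were set against each other, as miR-3118-3p minus miR-4307-3p. All 6 had a transfected duplex, so a change that both duplexes made alike cannot appear in this comparison, and an array of cells without a duplex was not analysed here. The labels give the same extraction text for inputs and pull-downs, so how the input portion was taken is not known here. The titles number replicates 1 to 3 in each group without stating whether each was a culture of its own, so the p-values rest on the spread among these arrays, which may be technical.

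A microRNA is carried by an Argonaute protein and finds messenger RNAs mainly through its seed, bases 2 to 8 counted from the 5′ end. A bound mRNA is usually deadenylated, decapped and degraded, and for that reason a transfected microRNA can show in total RNA as lower levels of its targets. The mature sequences of the microRNAs are shown because their seeds separate the groups that were compared. They come from RefSeq (GRCh38.p14), where they are named hsa-miR-3118 and hsa-miR-4307 and lie on the 3′ arm of their hairpins, and capitals mark the seed. The sequence of the synthetic duplexes themselves is not given in the labels.
miR-3118-3p: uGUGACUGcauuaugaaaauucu
miR-4307-3p: aAUGUUUUuuccuguuucc
The seeds differ, and so do the heptamers that pair with them in a target, CAGUCAC for miR-3118-3p and AAAACAU for miR-4307-3p. RefSeq places hsa-miR-3118 at 4 loci, 3 on chromosome 15 (plus strand, 20832838 to 20832860, 21406428 to 21406450 and 21843793 to 21843815) and 1 on chromosome 21 (minus strand, 13644784 to 13644806), and hsa-miR-4307 at 1 locus on chromosome 14 (plus strand, 26908697 to 26908715).

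The deposited values are on a log2 scale, and the method of normalization between arrays is not known here. The array medians of the inputs lay between 7.53 and 7.56 over 15025 probes, and 9581 named genes were tested with 1 probe each. A probe's brightness depends on its sequence as well as on the RNA, so levels were compared between arrays for a gene and not between genes. The lowest input value was 5.69. Across genes, which are not independent replicates, arrays of the same group correlated at 0.986 to 0.992 and arrays of different groups at 0.987 to 0.994. The median SD within a group was 0.135 for miR-3118-3p inputs and 0.128 for miR-4307-3p inputs. Among the pull-downs it was 0.230 with miR-3118-3p and 0.134 with miR-4307-3p. Only the 6 inputs entered the fit, so the wider pull-down did not set their error.

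No gene passed the test between the inputs. Of 9581 genes, 0 were higher (0%) and 0 were lower (0%) in miR-3118-3p inputs at an adjusted p under 0.05 (limma, Benjamini-Hochberg over all genes, n = 3 per group), and the lowest adjusted p was 0.365. At an unadjusted p under 0.05 there were 392 genes (4.09%), 148 of them higher (1.54%) and 244 lower (2.55%) with miR-3118-3p. For 888 genes (9.27%) the 3 and 3 values were fully apart, of which 364 were higher (3.8%) and 524 lower (5.47%). Values of 3 and 3 arrays in random order would be fully apart for 10%. Among all genes the difference was below 0 for 4992 (52.1%), with a median of -0.01. Each array measured RNA of a whole culture, in which fewer cells with a transcript and less of it per cell cannot be told apart.

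The differences were also small in size, and their intervals, which rest on the spread among these arrays, were narrow. They ran from -0.77 to 0.60, with 13 genes at 0.5 or more in either direction and 0 genes at 1 or more. The median 95% interval reached 0.26 to each side of the estimate. That interval lay inside -1 to 1 for 9580 of 9581 genes and inside -0.5 to 0.5 for 8795 genes (91.8%). SFXN1, which encodes a mitochondrial serine transporter, was the gene outside the wider band, with an interval from -1.10 to -0.44. By brightness, the median SD within groups was 0.124 for the dimmest 25% of genes, 0.150 and 0.159 for the next bins of 25% and 0.144 for the brightest. The dimmest genes had means from 5.72 to 6.66, near the lowest input value. A loss of RNA may not show there, so their narrow intervals do not bound it.

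**Figure D1:**
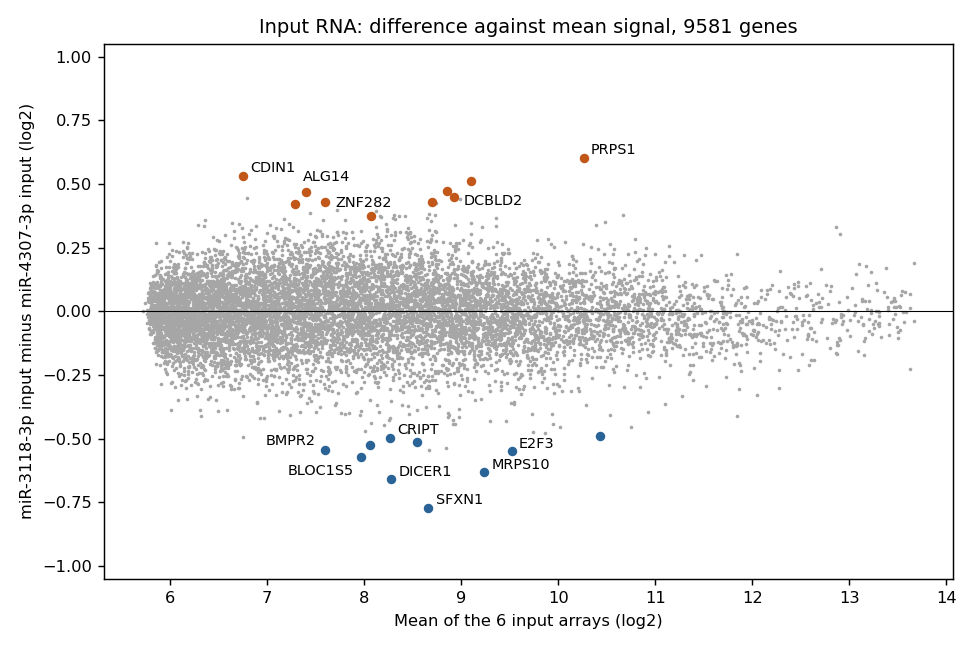
Difference between the inputs (miR-3118-3p minus miR-4307-3p, log2) against the mean of the 6 input arrays (log2), with 1 point for each of 9581 genes. Orange and blue points are the 10 genes of lowest p with a positive and a negative difference. All points lie between -0.77 and 0.60, and none passed an adjusted p of 0.05.

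The 10 genes nearest to the threshold with lower values in miR-3118-3p inputs have varied roles. None was called, so their values are given as measurements. MRPS10, a protein of the small subunit of the mitochondrial ribosome, had 8.92, 8.92 and 8.93 in miR-3118-3p inputs, against 9.54, 9.33 and 9.78 in miR-4307-3p inputs. Its difference was -0.63 ± 0.13 (SE, n = 3 per group; adjusted p = 0.365). SFXN1 had 8.60, 8.36 and 7.86 in miR-3118-3p inputs, against 9.05, 8.98 and 9.12 in miR-4307-3p inputs. The groups did not overlap for either gene, and the spread of SFXN1 lay mostly in the miR-3118-3p inputs, of which replicate 3 was lowest. The difference of SFXN1 was -0.77 ± 0.15 (adjusted p = 0.365).

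DICER1, the ribonuclease that cuts microRNA precursors into duplexes, had 7.90, 8.15 and 7.80 in miR-3118-3p inputs, against 8.84, 8.43 and 8.56 in miR-4307-3p inputs. All 3 miR-3118-3p values lay below all 3 miR-4307-3p values, with a difference of -0.66 ± 0.13 (adjusted p = 0.365). A dimmer probe of DICER1 gave -0.35, in the same direction. BLOC1S5, a subunit of a complex that builds lysosome-related organelles, had 7.65, 7.80 and 7.60 in miR-3118-3p inputs, against 8.20, 8.19 and 8.38 in miR-4307-3p inputs, a difference of -0.57 ± 0.12 (adjusted p = 0.365). E2F3, a transcription factor that drives entry into S phase, had 9.14, 9.32 and 9.27 in miR-3118-3p inputs, against 9.90, 9.64 and 9.84 in miR-4307-3p inputs, a difference of -0.55 ± 0.12 (adjusted p = 0.395). Both genes again had separate groups, with every miR-3118-3p value the lower.

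BMPR2, the type II receptor of bone morphogenetic proteins, had 7.18, 7.55 and 7.23 in miR-3118-3p inputs, against 7.91, 7.81 and 7.88 in miR-4307-3p inputs. Its difference was -0.55 ± 0.12 (adjusted p = 0.550), and its dimmer probe gave -0.23. The other 4 genes of this direction were CRIPT, which binds the PDZ domain of a synaptic scaffold protein (-0.50 ± 0.12), DGUOK, the deoxyguanosine kinase of mitochondria (-0.49 ± 0.12), E2F7, an E2F family member that represses transcription (-0.53 ± 0.13), and LYRM7, an assembly factor of respiratory complex III (-0.51 ± 0.12), each with adjusted p = 0.557. Other probes of DGUOK and LYRM7 gave -0.46 and -0.11. The 3 and 3 values did not overlap for any of these genes, which were picked by p from the same arrays (9.27% of all genes did not overlap).

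In the opposite direction the gene of lowest p was PRPS1, which encodes a phosphoribosyl pyrophosphate synthetase of nucleotide synthesis. It had 10.41, 10.62 and 10.66 in miR-3118-3p inputs, against 9.72, 10.10 and 10.05 in miR-4307-3p inputs, a difference of 0.60 ± 0.13 (adjusted p = 0.395). CDIN1, whose mutation causes a congenital anaemia, had 7.15, 6.77 and 7.15 in miR-3118-3p inputs, against 6.45, 6.41 and 6.60 in miR-4307-3p inputs, a difference of 0.53 ± 0.13 (adjusted p = 0.557). The miR-3118-3p values of both genes lay above all miR-4307-3p values. DCBLD2, a membrane receptor related to neuropilins, stood at 0.45 ± 0.12, ALG14, a subunit of an enzyme of N-glycan assembly, at 0.47 ± 0.12, and the zinc finger gene ZNF282 at 0.43 ± 0.11, each with adjusted p = 0.732.

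The remaining 5 genes had adjusted p between 0.841 and 0.920. They were LEPROTL1, an endosomal membrane protein (0.47 ± 0.13), TGIF1, a homeodomain repressor of TGF-beta responses (0.42 ± 0.12), the splicing factor ISY1 (0.43 ± 0.12), the tetraspanin TSPAN13 (0.51 ± 0.14) and GOLT1B, a Golgi transport protein (0.38 ± 0.11). Where these genes had a further probe it went the same way, at 0.29 for DCBLD2, 0.09 for ALG14, 0.08 for TGIF1, 0.41 for ISY1 and 0.27 for TSPAN13. Over all 2330 genes with several probes, the differences of the brightest and the next probe correlated at r = 0.31 (Spearman's rho 0.26) and had the same sign for 59.4%. Probes of a gene share the arrays, so this is a description of how far they moved together.

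**Figure D2:**
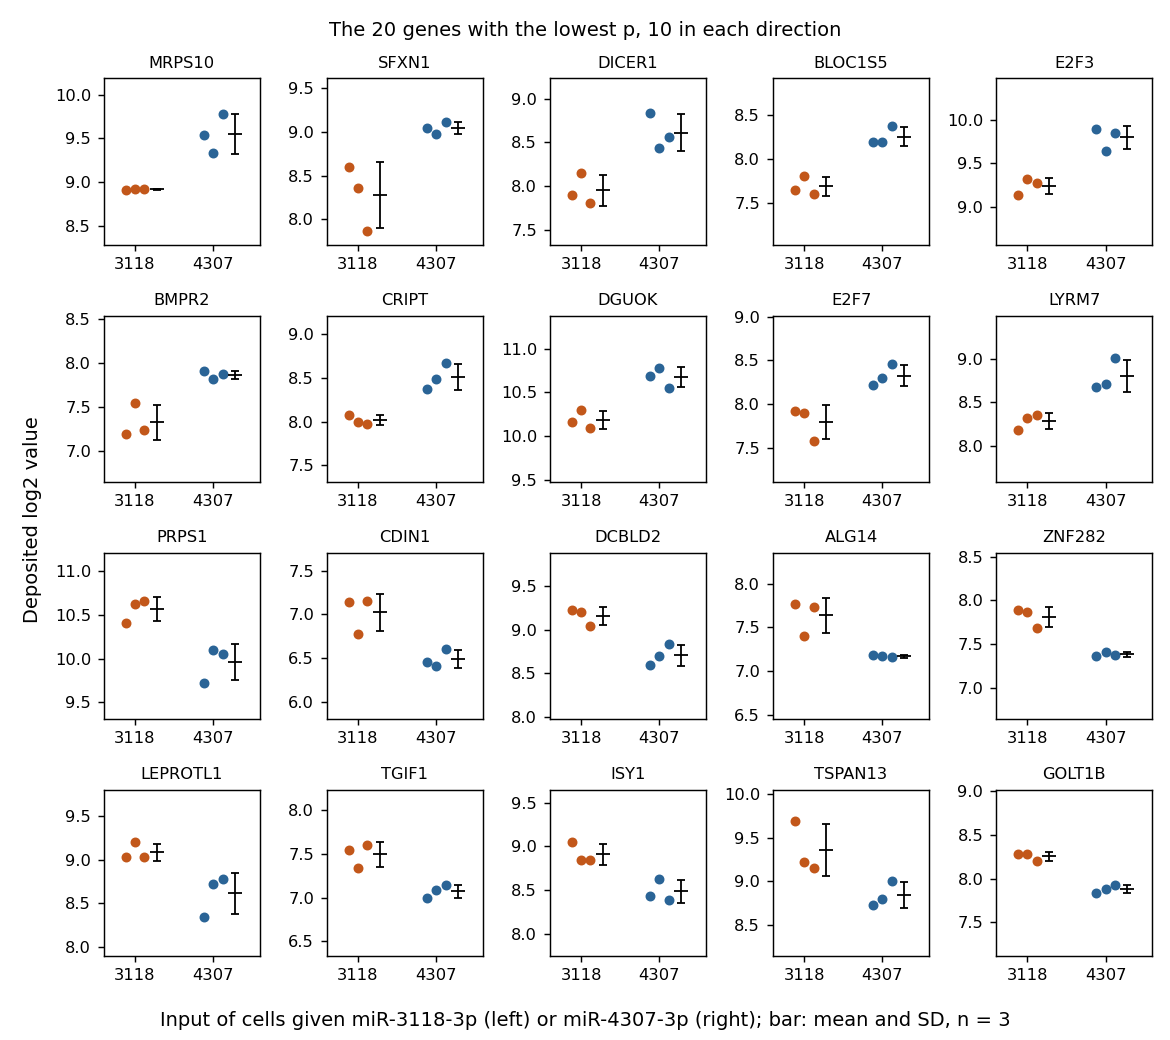
Deposited log2 values of the 20 genes with the lowest p, 10 for each direction, with miR-3118-3p inputs in orange on the left and miR-4307-3p inputs in blue on the right. Each point is 1 array and the bar is the mean with its SD (n = 3). The groups do not overlap in any panel, which follows largely from picking genes by p on these same arrays (9.27% of all genes were fully apart). No gene passed the adjusted threshold (lowest adjusted p 0.365).

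Lists of genes that a transfected duplex might move were compared by the counts of their measured members, and 0 members of any list were called. In the lists below, higher and lower count members at an unadjusted p under 0.05. Of all genes, 1.54% were higher and 2.55% lower in that sense, and 52.1% had a difference below 0. Detection was not read, so values near 5.69, the lowest of the inputs, may be background. Among members named below, such values include those of NFKB2, TCF7L2, MT1E and DUSP6, which averaged 5.77, 5.86, 5.88 and 5.91. Genes induced by interferon, the cytokine response to foreign double-stranded RNA, were in the table for 20 of 43 listed genes. Of these, 10 differences were above 0 and 10 below, the median was -0.00, and 0 were higher and 1 lower at an unadjusted p under 0.05. The lower one was ISG20, an exonuclease, with a mean of 5.77 ± 0.02 in miR-3118-3p inputs, against 6.05 ± 0.04 in miR-4307-3p inputs (SD, n = 3 each). Its groups did not overlap, and all its values were close to the lowest of the inputs. IFIT1, which binds foreign RNA, stood at 0.21 ± 0.11, B2M, the light chain of class I antigens, at 0.22 ± 0.13 and OAS3, a sensor of double-stranded RNA, at -0.19 ± 0.12. Sensors and adaptors of double-stranded RNA were measured for 11 of 19 genes, with 0 higher and 1 lower, the kinase TBK1 at -0.29 ± 0.13. TICAM1 and TRAF3, adaptor proteins of the same route, stood at -0.13 ± 0.11 and -0.14 ± 0.12, and PRKRA, the activator of protein kinase R, at 0.18 ± 0.16.

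All 7 measured genes of the 18 in the NF-kappaB list were within 0.21 of 0. NFKB1, a subunit of the factor, stood at -0.21 ± 0.11 with groups that did not overlap. The others were NFKBIA (its inhibitor, -0.06), RELA (-0.02), NFKB2 (0.00), CXCL8 (a chemokine, -0.05), IER3 (0.04) and SOD2 (mitochondrial superoxide dismutase, -0.06). The other probe of SOD2 gave 0.09, the opposite sign. Immediate early genes, which respond first to growth signals and stress, had 20 of 31 measured, with 0 higher and 0 lower. MYC had 9.35, 9.32 and 9.29 in miR-3118-3p inputs, against 9.23, 9.15 and 9.25 in miR-4307-3p inputs, so its groups did not overlap although the difference was 0.11 ± 0.11. IER5, JUND and DUSP6 stood at -0.16, 0.14 and -0.14.

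The machinery that makes and uses microRNAs had 26 of 33 genes measured. None was higher at an unadjusted p under 0.05 and 2 were lower (2.55% of all genes were), DICER1 and PAN2, part of a deadenylase, at -0.27 ± 0.12. The median was -0.06, with 10 differences above 0 and 16 below (52.1% of all genes were below 0). PAN3, the partner of PAN2, and DCP1A, a cofactor of mRNA decapping, stood at -0.22 ± 0.11 and -0.27 ± 0.13. Among the Argonaute proteins AGO1 stood at 0.21, AGO2 at -0.07 and AGO3 at 0.14, and their scaffold partners TNRC6A and TNRC6B stood at -0.05 and -0.01. DROSHA, the nuclear enzyme that precedes DICER1, stood at -0.13, and the exporter XPO5 at -0.00. Apart from DICER1, members of the list therefore lay between -0.27 and 0.21.

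Proteins that carry or handle biotin were all measured, 10 of 10 genes, with 0 higher and 0 lower. Of these, BTD, PC, MCCC2 and HLCS averaged 5.81, 5.89, 6.26 and 6.35. Detection was not read and the lowest input value was 5.69, so the small differences of these dim genes may be background. ACACA, acetyl-CoA carboxylase 1, had 8.88, 9.56 and 9.38 in miR-3118-3p inputs, against 9.30, 9.51 and 9.30 in miR-4307-3p inputs. The groups overlapped, replicate 1 of miR-3118-3p was the lowest of the 6, and the difference was -0.09 ± 0.15. ACACB, its paralogue, stood at -0.26 ± 0.13 with groups that did not overlap. The others lay between -0.06 and 0.06: PC (pyruvate carboxylase, -0.03), PCCA and PCCB (subunits of propionyl-CoA carboxylase, 0.04 and 0.05), MCCC1 and MCCC2 (subunits of methylcrotonyl-CoA carboxylase, -0.06 and -0.01), the biotin ligase HLCS (-0.02), biotinidase BTD (-0.02) and the vitamin transporter SLC5A6 (0.06).

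Stress responses gave a few members on the higher side. In the list of the amino acid response and ATF4 targets, 3 of 19 measured genes were higher and 0 lower at an unadjusted p under 0.05, beside 1.54% of all genes higher and 2.55% lower. In this list 14 differences were above 0 and 5 below, with a median of 0.04 that was -0.01 without either miR-3118-3p input numbered 2 or 3 and 0.11 without the one numbered 1. DDIT4, an inhibitor of mTORC1 that is induced by many stresses, had 8.62, 8.47 and 8.75 in miR-3118-3p inputs, against 8.30, 8.19 and 8.23 in miR-4307-3p inputs. Its groups did not overlap, at 0.37 ± 0.12 (adjusted p = 0.920). GARS1, glycyl-tRNA synthetase, stood at 0.28 ± 0.11, DDIT3, the stress transcription factor CHOP, at 0.29 ± 0.13 and ATF5 at -0.18 ± 0.13. In the unfolded protein response 2 of 21 were higher and 0 lower, with a median of 0.08. PDIA6, a disulfide isomerase of the endoplasmic reticulum, stood at 0.29 ± 0.11 beside DDIT3, while the chaperone HYOU1 and the sensor ATF6 stood at 0.22 ± 0.13 and 0.18 ± 0.12. Leaving out the miR-3118-3p input numbered 3 gave a median of -0.01.

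Heat shock genes had 18 of 22 measured, with 0 higher, 0 lower and a median of -0.04. HSPA1A, the inducible HSP70, had 13.15, 12.87 and 13.40 in miR-3118-3p inputs, against 12.91, 13.14 and 12.92 in miR-4307-3p inputs, and the groups overlapped. HSPA8, its constitutive relative, stood at 0.20 ± 0.16, HSPA4 at 0.12 ± 0.12 (0.01 from its other probe) and the cochaperone BAG3 at -0.19 ± 0.13. HSPA1A has the near-identical copy HSPA1B, which makes the source of its probe uncertain. Genes of the NRF2 response had 1 of 23 higher, the autophagy receptor SQSTM1 at 0.34 ± 0.12, and 0 lower, while TXNRD1, thioredoxin reductase, stood at -0.22 ± 0.12 and GCLC, of glutathione synthesis, at 0.22 ± 0.13. Other probes of TXNRD1 and GCLC gave 0.03 and -0.07, the opposite signs. Metallothioneins and their regulators had 7 of 12 measured, with 0 higher and 0 lower, among them MT1E (0.04), MT1F (-0.02), MT1X (0.14), MT2A (-0.01), the zinc exporter SLC30A1 (-0.07), the factor MTF1 (-0.16) and heme oxygenase HMOX1 (-0.09).

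Genes of p53, which large T antigen binds in these cells, had 1 of 17 higher and 0 lower. TP53I3 stood at 0.26 ± 0.12, the cell cycle inhibitor CDKN1A at -0.24 ± 0.12, the DNA repair factor XPC at 0.17 ± 0.11 and SESN1 at -0.17 ± 0.12. Among apoptosis regulators 0 of 25 were higher and 1 lower, BCL2, an inhibitor of cell death, at -0.29 ± 0.13. Its relative MCL1 stood at 0.22 ± 0.13, with 0.02 from its other probe. BIRC2, an inhibitor of apoptosis, stood at 0.19 ± 0.13 (-0.08 from its other probe) and the death domain adaptor FADD at -0.19 ± 0.11.

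Cell cycle genes were nearly all present. In the list of G1, S phase and E2F targets 38 of 41 were measured, with 2 higher and 2 lower at an unadjusted p under 0.05 and a median of -0.01. Beside E2F3 the lower one was CDK6, a kinase of the G1 phase, with 8.66, 8.79 and 8.85 in miR-3118-3p inputs, against 9.34, 8.98 and 9.23 in miR-4307-3p inputs. Its groups did not overlap, at -0.42 ± 0.12 (adjusted p = 0.920). The higher genes were RFC2, of the replication clamp loader, at 0.38 ± 0.15, whose other probe gave 0.05, and MCM5, of the replicative helicase, at 0.34 ± 0.15. For G2 and M phase 38 of 39 were measured, with 2 higher and 0 lower, where 1.54% of all genes were higher. There were 27 differences above 0 and 11 below (52.1% of all genes were below 0), with a median of 0.08 that was 0.02 without the miR-3118-3p input numbered 3 and 0.15 without the one numbered 1. The higher genes were CDCA8, of the chromosomal passenger complex, at 0.37 ± 0.12 and HMMR, a spindle protein, at 0.30 ± 0.13. CKS2, a subunit of cyclin-dependent kinases, stood at 0.23 ± 0.11, with -0.10 from its other probe. The centrosomal kinase NEK2 stood at 0.27 ± 0.14, with 0.05 from its other probe.

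**Figure D3:**
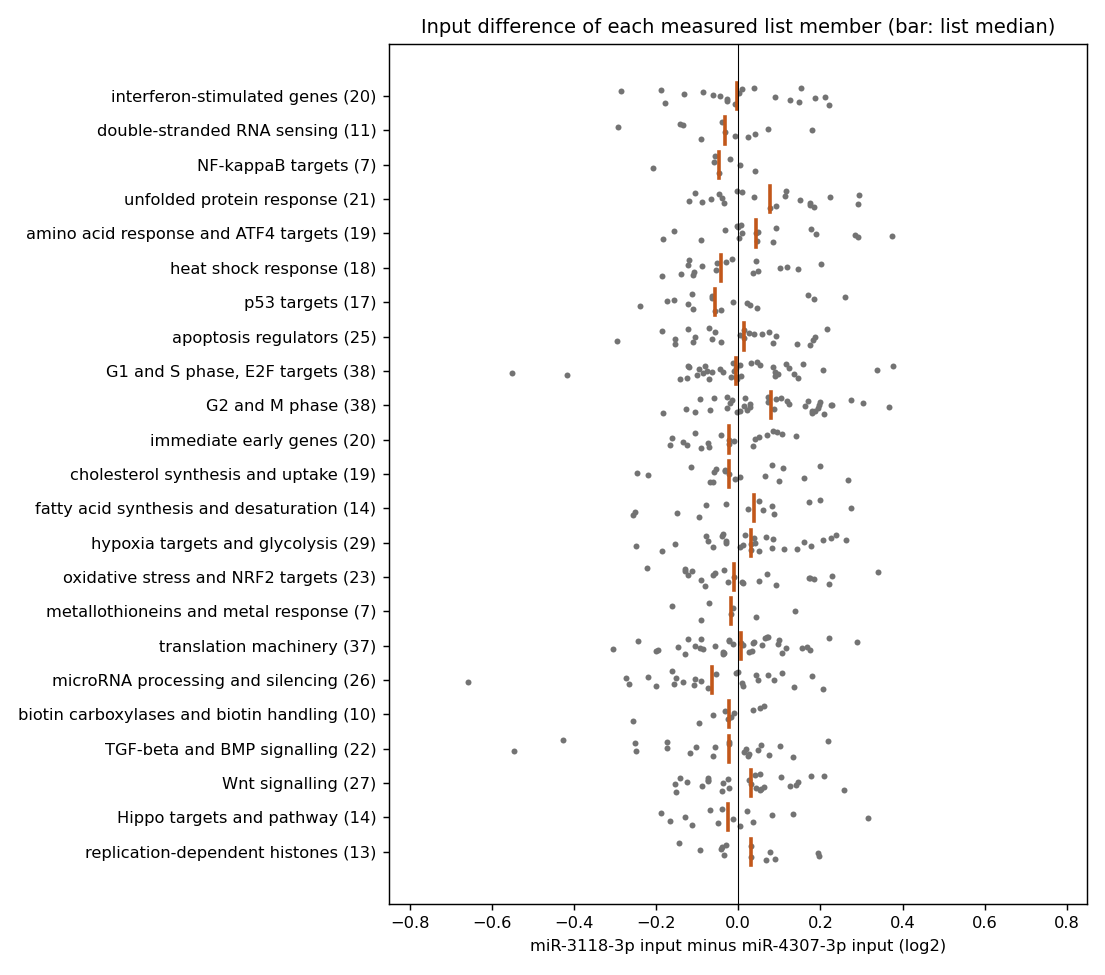
Difference between the inputs (miR-3118-3p minus miR-4307-3p, log2) of each measured member of 23 gene lists, with the number of measured members in brackets. Grey points are genes and the orange bar is the list's median. Medians lie between -0.06 and 0.08, and the points farthest from 0 are DICER1, E2F3, BMPR2, TGFBR3 and CDK6 on the lower side.

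Among TGF-beta and BMP genes 22 of 32 were measured, with 0 higher and 2 lower. Beside BMPR2, the other was TGFBR3, a coreceptor for TGF-beta, with 7.82, 8.34 and 7.98 in miR-3118-3p inputs, against 8.55, 8.39 and 8.48 in miR-4307-3p inputs. The groups were apart by little, since the highest miR-3118-3p value was 8.34 and the lowest miR-4307-3p value 8.39, and the difference was -0.43 ± 0.13 (adjusted p = 0.920). ID1, a target of BMP signals, stood at -0.25 ± 0.12 and TGFBR2, the type II TGF-beta receptor, at 0.22 ± 0.11. The list's median was -0.02. Wnt genes had 27 of 34 measured, with 0 higher, 0 lower and a median of 0.03, among them the kinase CSNK1A1 (0.26 ± 0.13), the ligand WNT5A (0.21 ± 0.14), the factor TCF7L2 (0.18 ± 0.12) and the scaffold AXIN1 (-0.15 ± 0.12). In the Hippo list 1 of 14 was higher, the kinase cofactor MOB1A at 0.32 ± 0.13, although its other probe gave -0.03, and 0 were lower. Its paralogue MOB1B stood at -0.13 ± 0.11, and the kinases STK3 and STK4 stood at 0.13 ± 0.11 and -0.19 ± 0.13.

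Genes of lipid and energy metabolism had differences between -0.26 and 0.27. Cholesterol genes had 19 of 26 measured, with 0 higher and 0 lower. The enzyme EBP stood at 0.27 ± 0.13, MSMO1 at -0.25 ± 0.12, INSIG1, the sterol-dependent retention protein, at -0.22 ± 0.12 and HMGCS1 at 0.16 ± 0.12. The next probe of MSMO1 went the other way, at 0.30. Fatty acid genes had 1 of 14 higher, the elongase ELOVL5 at 0.27 ± 0.13, and 1 lower, the acyl-CoA ligase ACSL4 at -0.25 ± 0.11, beside malic enzyme ME1 at 0.17 ± 0.11. Hypoxia and glycolysis genes had 1 of 29 higher, the collagen hydroxylase P4HA1 at 0.26 ± 0.12, and 1 lower, the oxidase ERO1A at -0.25 ± 0.12. The glucose transporter SLC2A1 stood at 0.24 ± 0.13 and P4HA2 at 0.21 ± 0.12.

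Translation factors had 37 of 37 measured, with 1 higher, the cap-binding protein EIF4E at 0.29 ± 0.12, and 1 lower, EIF3B, of initiation factor 3, at -0.30 ± 0.13. The dimmer probe of EIF4E went the other way, at -0.20. EIF2S2 stood at -0.20 ± 0.12. Replication-dependent histones had 13 of 25 measured, with 0 higher and 0 lower, among them H2BC21 (0.19 ± 0.11), H2BC11 (0.20 ± 0.15), H4C5 (-0.14 ± 0.11) and H2BC4 (0.08 ± 0.12), and because histone genes have near-identical copies it is uncertain which copy a probe read. The commonly used reference genes overlapped between the groups, ACTB with 12.47, 12.50 and 12.59 in miR-3118-3p inputs, against 12.56, 12.46 and 12.64 in miR-4307-3p inputs (-0.04 ± 0.11), and GAPDH with 12.51, 12.41 and 12.46, against 12.44, 12.55 and 12.35 in miR-4307-3p inputs (0.01 ± 0.11).

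The mean of the 6 inputs served as a profile of the transfected cells and was checked against markers. HEK293 cells are known to carry transcripts of early neurons beside those of embryonic kidney. Neuronal genes were in the table for 15 of 31, while MAP2, DCX, STMN2, GAP43, SNAP25 and ELAVL4 were among those absent from it. The 6-array means were 8.21 for NEFM, 7.33 for INA and 6.63 for NEFL, neuronal filaments, 11.30 for TUBB2B and 8.07 for TUBB3, tubulins, 10.88 for the deubiquitinase UCHL1, 6.44 for the transcription factor INSM1 and 5.81 for SYP, a synaptic vesicle protein. VIM (12.21) and MARCKSL1 (11.18), which many other cell types also express, were in the list too. The differences of the 15 lay between -0.24 for UCHL1 and 0.18 for ENO2, with 0 higher and 0 lower. DPYSL3 and DBN1, proteins of the neuronal cytoskeleton, stood at -0.17 ± 0.14 and 0.16 ± 0.14.

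Factors of kidney development were in the table for 7 of 27. HOXD11 averaged 9.82 ± 0.17 (SD, n = 6), FOXD1 9.37 ± 0.11, SIX4 8.92 ± 0.07 and BMP7 8.58 ± 0.10, and EMX2 (6.92 ± 0.17), GATA3 (6.11 ± 0.20) and CITED1 (5.87 ± 0.13) were the other 3. PAX2, PAX8, WT1 and SIX2 had no probe among the named genes of the table, so no value of these defining factors could be read here. All 7 measured factors had differences below 0, as did 52.1% of all genes, between -0.29 for GATA3 and -0.07 for SIX4, with a median of -0.12 and 1 lower at an unadjusted p under 0.05 (GATA3, -0.29 ± 0.12; 2.55% of all genes). Each of the 7 overlapped between the groups, and 0 were called. HOXD11 stood at -0.14 ± 0.13, FOXD1 at -0.07 ± 0.12, EMX2 at -0.17 ± 0.13, BMP7 at -0.12 ± 0.11 and CITED1 at -0.10 ± 0.12.

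Embryonic genes were in the table for 9 of 22. LIN28B, an inhibitor of let-7 maturation, averaged 10.35 ± 0.12 (SD, n = 6), HMGA1, a chromatin protein, 9.55 ± 0.18, and the mRNA-binding proteins IGF2BP2, IGF2BP3 and IGF2BP1 averaged 9.41 ± 0.12, 8.47 ± 0.14 and 6.33 ± 0.13. BEX1 stood at 9.11 ± 0.19, the DNA methyltransferase DNMT3B at 7.53 ± 0.08, SOX2 at 7.44 ± 0.32 and PODXL at 7.26 ± 0.23. SOX2 was the most variable of them, with 7.30, 7.31 and 7.62 in miR-3118-3p inputs, against 7.19, 8.01 and 7.18 in miR-4307-3p inputs, where replicate 2 was highest. The list had 0 higher and 0 lower between the groups.

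Most listed markers of other cell types were outside the table, whose probes were picked in a way not known here, so no value was read for them. Mature kidney epithelium had 5 of 26 in the table, KRT18 at 6.69, KRT8 at 6.62, EPCAM at 6.33, PODXL as above and ATP6V1B1 at 5.84. Fibroblast and mesenchymal genes had 6 of 19, with TWIST1 at 7.15, SPARC at 7.04, ACTA2 at 6.33, COL6A1 at 6.07 and both COL1A1 and TAGLN at 5.94. Blood markers had 2 of 19, CD68 at 7.99 and HBA2 at 6.07, and muscle markers 2 of 11, TNNT1 at 6.28 and ACTA1 at 5.96. FDX1 was the 1 of 15 adrenal and steroidogenic markers, at 6.08, ALB the 1 of 14 hepatocyte markers, at 6.54, and 0 of 11 endothelial markers were in the table. Detection calls were not used here, so values near 5.69, the lowest of the inputs, may be background. None of these markers was called between the groups.

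**Figure D4:**
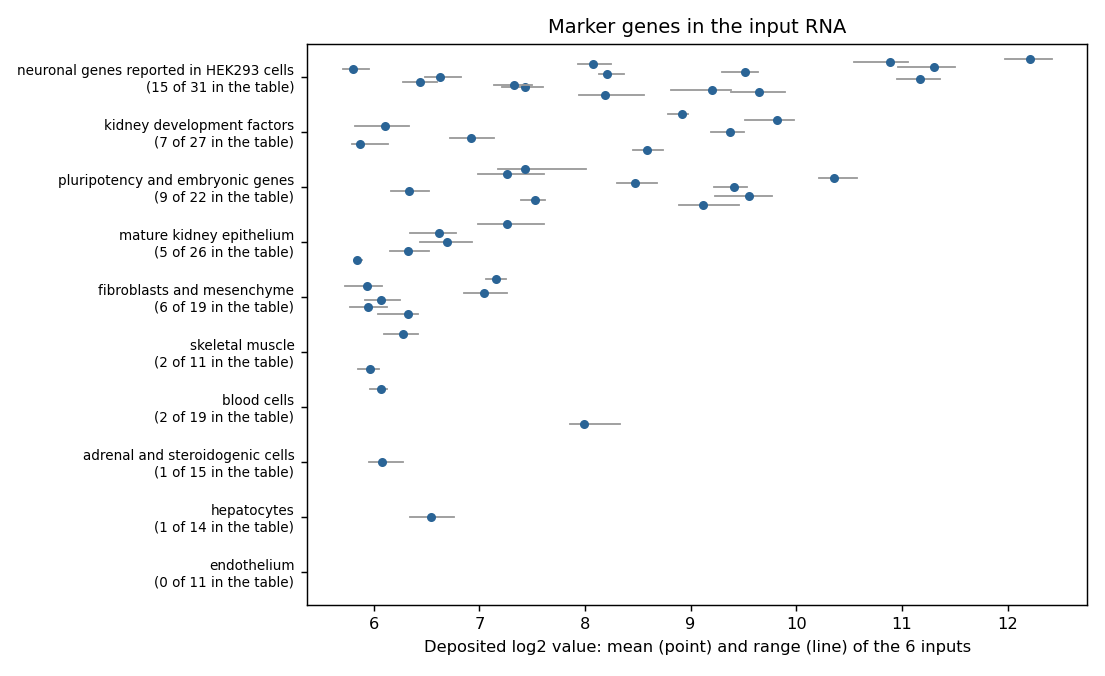
Deposited log2 values of marker genes in the 6 inputs of both microRNAs together, by list. The point is the mean over 6 arrays, the line runs from the lowest to the highest array. The table holds 15 of 31 neuronal, 7 of 27 kidney development and 0 of 11 endothelial markers, and brightness is not comparable between genes.

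The inputs also differed among themselves. Summed over all genes, 18.1% of the variation lay between the microRNAs, 36.3% between replicate numbers and 45.6% was left over, where equal variation in every direction would give 20% and 40% for the first and second of these. The first principal component held 34.3% of the variation. Replicates 1 of miR-3118-3p (-13.17) and 3 of miR-4307-3p (-8.90) lay on one side of it, and replicate 3 of miR-3118-3p (11.89) on the other, so that the arrays of a group were spread along it. Replicate 1 of miR-3118-3p also had the lowest mean correlation with the other inputs, at 0.989, against 0.992 for the replicates numbered 2.

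Some genes varied among replicates of a group far more than between the groups. AMOT, angiomotin, a regulator of the Hippo pathway, had 9.23, 10.18 and 10.33 in miR-3118-3p inputs, against 9.48, 10.20 and 10.05 in miR-4307-3p inputs. Replicate 1 was lowest in both groups, and the group difference was 0.00 ± 0.23. SMARCA1, a chromatin remodeller, had 7.31, 8.21 and 8.51 in miR-3118-3p inputs, against 7.76, 8.18 and 7.84 in miR-4307-3p inputs, again with replicate 1 lowest in both. VCP, an ATPase that extracts ubiquitinated proteins, had 8.06, 8.24 and 8.99 in miR-3118-3p inputs, against 8.75, 8.64 and 7.77 in miR-4307-3p inputs, where replicate 3 was highest in one group and lowest in the other. IGFBP5, a binding protein of insulin-like growth factors, ran from 5.94 to 7.05 in miR-3118-3p inputs and from 6.41 to 7.09 in miR-4307-3p inputs, and RHBDL2, a rhomboid protease, from 7.12 to 7.81 and from 6.78 to 7.87 in the same order. The probe annotated to MIR1228 ran from 6.81 to 7.92 and from 6.54 to 7.41.

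A second set of genes was chosen because its variation lay between replicate numbers. PHF5A, a splicing factor subunit, had 10.16, 10.87 and 10.84 in miR-3118-3p inputs, against 10.20, 10.76 and 10.86 in miR-4307-3p inputs. DSC2, a desmosomal cadherin, had 6.97, 7.61 and 7.69 in miR-3118-3p inputs, against 6.87, 7.56 and 7.54 in miR-4307-3p inputs. In both genes replicate 1 stood below the others in each group. CKAP4, a membrane protein of the endoplasmic reticulum, and C2CD5, a regulator of vesicle fusion, also had their lowest value in replicate 1 of each group. SERTAD1, a transcriptional cofactor (8.37, 8.01 and 7.80, against 8.35, 8.11 and 7.76 in miR-4307-3p inputs), and SURF1, an assembly factor of cytochrome oxidase (7.68, 7.38 and 7.14, against 7.80, 7.26 and 7.12 in miR-4307-3p inputs), were highest in replicate 1. These 6 genes were picked for this pattern, which is given as a description.

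The last comparison asked whether mRNAs that the microRNAs recovered unequally also differed in the inputs. Genes were chosen by miR-3118-3p pull-down minus miR-4307-3p pull-down. No input value enters that difference, but the inputs share in the spread that decides the calls. It was not corrected for input, so a difference in input RNA can carry into it. Whether a pull-down and an input with the same number came from the same cells was not tested. Their deviations from the group means correlated across genes at 0.37, 0.05 and 0.49 with miR-3118-3p (replicates 1, 2 and 3). When miR-4307-3p was transfected they correlated at 0.23, 0.33 and 0.32. In the pull-downs 933 genes were higher (9.74%) and 949 lower (9.91%) with miR-3118-3p at an adjusted p under 0.05 (limma, 12 arrays), against 0 and 0 in the inputs. A fit of only the 6 pull-down arrays gave 463 higher and 596 lower. Without the miR-3118-3p pull-down numbered 1, 1383 genes were higher and 1109 lower, and without the miR-4307-3p pull-down numbered 1, 620 were higher.

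More of the genes recovered with miR-3118-3p lay above 0 than below 0 in its input. Of the 933, 547 had an input difference above 0 and 386 below (41.4% below, against 52.1% of all genes), with a median of 0.03. That median was 0.01 over the 1383 genes called without the miR-3118-3p pull-down numbered 1 (45.7% below), and 0.02 without the miR-3118-3p input numbered 3. Of the 103 that differed by at least 1 in the pull-downs, 72 had an input difference above 0 and 31 below (30.1% below), with a median of 0.07. Choosing them without that pull-down array gave 174 genes and a median of 0.05, and leaving out the miR-3118-3p input numbered 3 gave 0.04. When both miR-3118-3p arrays numbered 1, pull-down and input, were left out, 174 genes also met that rule, 116 above 0 and 58 below, with a median of 0.05. Of the 949 genes recovered more with miR-4307-3p, 414 had an input difference above 0 and 535 below (56.4% below, against 52.1% of all genes), with a median of -0.02. Without the miR-3118-3p input numbered 1 this median was 0.0019, above 0. Of the 273 among them that differed by at least 1, 124 were above 0 and 149 below, with the same median of -0.02. Across all 9581 genes the pull-down and input differences correlated at r = 0.09 (rho 0.10). This is given as a description, since the genes share the arrays and a pull-down and an input may share cells.

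The 12 genes with the widest gap between the pull-downs had input differences between -0.25 and 0.22. LARP7, which stabilises the 7SK RNA, differed by -3.96 ± 0.16 between the pull-downs. In the inputs it had 9.12, 8.96 and 9.05 with miR-3118-3p, against 9.26, 9.37 and 9.11 with miR-4307-3p, a difference of -0.21 ± 0.12 with overlapping groups, and its other probe gave 0.07. BEX5 differed by -3.52 ± 0.17 between the pull-downs and by -0.06 ± 0.12 between the inputs (7.40, 7.29 and 7.12 with miR-3118-3p, against 7.27, 7.28 and 7.44 with miR-4307-3p). HMGN5, a nucleosome-binding protein, differed by -3.27 ± 0.23 and -0.06 ± 0.15, the splicing regulator NSRP1 by -2.77 ± 0.13 and -0.23 ± 0.13, ERICH5 by -2.76 ± 0.15 and 0.15 ± 0.12, and IFT74, of intraflagellar transport, by -2.66 ± 0.15 and -0.02 ± 0.12, in the order pull-down and input.

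In the other direction MRPS18B, a mitochondrial ribosomal protein, differed by 2.11 ± 0.16 between the pull-downs. Its inputs had 10.14, 10.18 and 10.37 with miR-3118-3p, against 10.33, 10.17 and 9.74 with miR-4307-3p, and the difference was 0.15 ± 0.14. NUP160, of the nuclear pore, differed by 1.85 ± 0.17 between the pull-downs, and it was the 1 gene of these 12 whose inputs did not overlap. It had 9.18, 9.35 and 9.44 with miR-3118-3p, against 9.69, 9.46 and 9.55 with miR-4307-3p, a difference of -0.25 ± 0.12 whose interval reached from -0.50 to 0.01. COMMD9, of a complex that recycles membrane proteins, differed by 1.82 ± 0.18 in the pull-downs and 0.04 ± 0.15 in the inputs, the poly(A)-binding protein PABPC1 by 1.80 ± 0.13 and 0.22 ± 0.12, the death domain adaptor CRADD by 1.73 ± 0.16 and 0.15 ± 0.14, and the transcriptional repressor MIER1 by 1.70 ± 0.20 and 0.01 ± 0.15. The 20 genes nearest the threshold in the inputs were mixed in the pull-downs. Of the 10 on the lower side, 2 were called lower there (9.91% of all genes were), BLOC1S5 at -1.34 ± 0.17 (adjusted p = 3.09e-05) and DGUOK at -0.60 ± 0.13 (adjusted p = 0.00401). The other 8 were not called, with SFXN1 (0.42), BMPR2 (0.34), E2F7 (0.22) and E2F3 (0.04) above 0 and DICER1 (-0.47), MRPS10 (-0.37), CRIPT (-0.27) and LYRM7 (-0.03) below. Of the 10 on the higher side, 5 were called higher (9.74% of all genes were), DCBLD2 (0.84), GOLT1B (0.84), TGIF1 (0.76), PRPS1 (0.75) and CDIN1 (0.73). ISY1 was called in the opposite direction, at -0.41 ± 0.13 (adjusted p = 0.0421), and TSPAN13 (0.50), LEPROTL1 (0.16), ALG14 (0.07) and ZNF282 (-0.04) were not called. Because an input difference can carry into the pull-down difference, these calls are no independent support for the 20 genes.

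**Figure D5:**
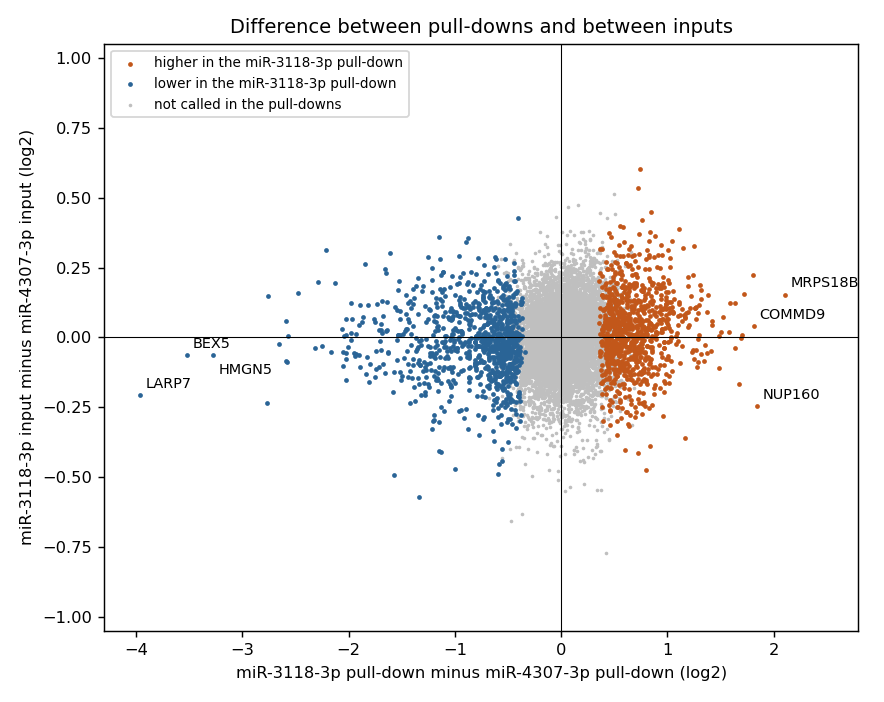
Difference between the inputs against the difference between the pull-downs (both miR-3118-3p minus miR-4307-3p, log2), with 1 point per gene. Orange and blue mark the 933 genes higher and the 949 lower with miR-3118-3p in the pull-downs, and grey the genes not called there. Differences between the pull-downs reach -3.96 for LARP7, while those between the inputs stay between -0.77 and 0.60.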

How the data were processed

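The deposited log2 values of 12 arrays were used; per the submitters' processing notes the authors used lumi 2.2.1, and how they normalized, transformed and picked the 15025 probes is not known here. A deposited table of signals has 12 value columns that match no sample label and was not used, so detection could not be read. Gene names came from the platform annotation through gene identifiers: 1 symbol was found for 12354 probes, several for 2, and 2669 probes were unlisted. The probe with the highest input mean stood for each of 9581 genes. Transcripts of X inactivation and of the Y chromosome stayed out. No 2 arrays held identical values (0 pairs).

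The inputs were fitted with limma 3.58.1 in R 4.3.3 on 6 arrays (4 residual degrees of freedom, 12.0 from the prior), and the pull-down difference on all 12. P-values were two-sided, adjusted by Benjamini-Hochberg over 9581 genes. Simulated data with known changes were used to test that fit. It called 32 of 67 changes of 0.5 (47.8%), 62 of 67 changes of 1 and 66 of 66 changes of 2. It also called 5 unchanged genes. Changes of 0.5 can therefore be missed. Same-numbered inputs did not deviate together (correlations 0.02, -0.02 and -0.31). Files give no slide or scan date, so these were not tested.

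The members and lists were chosen with earlier results of these data known. Named genes were the 10 largest called differences per direction, filled by lowest p, all members of lists with up to 10 measured genes or the 4 of lowest p in others, 6 genes each by SD within groups and by share between replicate numbers, the 6 largest pull-down differences per direction, and ACTB and GAPDH; members of marker and microRNA lists named beyond these were chosen after their values were seen. Alternatives changed the shared spread, weights, prior, normalization, probe choice, dim genes, the replicate block and single arrays. Plots used Python 3.11.15 with matplotlib 3.10.9.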

Additional observations from a re-analysis of the deposited data

How the results depend on the processing

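Between the inputs, 0 genes were higher and 0 lower in all 18 other settings, with between 158 genes (all 12 arrays sharing the spread) and 567 genes (array weights) at an unadjusted p under 0.05; the lowest adjusted p over these settings was 0.0585, for SFXN1 without replicate 1 of the miR-3118-3p inputs. The 20 genes nearest the threshold kept their sign in all 360 refits and passed the threshold in 0. Their groups were fully apart, so leaving out 1 array could not turn the sign, and the kept sign lends them no support. With the replicate number as a block there were 0 called genes and 302 at an unadjusted p under 0.05 (lowest adjusted p 1.00), and 1 of 6 inputs correlated best with its own number. For the pull-down difference, the 6 pull-down arrays alone gave 463 higher and 596 lower genes, the replicate block 1014 and 1011, and leaving out 1 array between 620 and 1383 higher and between 685 and 1109 lower; the cause was not tested. Medians over lists and chosen genes were read under the same settings, an alternative added after seeing the data, and 561 of 584 moved by less than the spread between replicates. The small number of arrays limits precision: the median 95% interval of an input difference reached 0.26 to each side.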

Other observations

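Probes without a gene name were tested with the named ones. Among all 15025 probes 0 passed an adjusted p of 0.05 (limma), 570 had an unadjusted p under 0.05, and 93 of these were among the 2673 probes left without a name or left out of the gene tests; the lowest adjusted p was 0.593.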
